A study of Homo sapiens with 4 samples.

Results

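The transcripts of 5 genes of cholesterol synthesis and its control were followed in lymphoma cells depleted of MYC, the transcription factor and driver of cell growth. The genes were the enzymes FDPS, IDI1 and SQLE and the regulators SREBF2 and INSIG1. They were chosen by the gene symbol of the array annotation, and every array feature with 1 of these symbols was taken. This gave 9 features of 15154, and 5 genes of 4603 with a symbol. Each of the 9 features had a value on each of the 4 arrays of the series. OCI-Ly10 is an established human cell line from a diffuse large B-cell lymphoma with an activated B-cell profile. Cells were electroporated with 4 uM of a pool of siRNAs against MYC and harvested after 24 h, 8 h or 6 h. The control cells came from the same line, were electroporated by the same program and were harvested at the same times. They had received either 4 uM of a nonspecific siRNA directed at Renilla luciferase (harvested at 24 h and 8 h), or the electroporation solution alone (harvested at 24 h and 6 h). Each of these 4 comparisons has 1 array, and the arrays are called the control siRNA arrays and the no-siRNA arrays below.

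On each array Cy5 marked the RNA from MYC siRNA and Cy3 the control RNA, with 0 dye swaps. A value is 1 log2 ratio of MYC siRNA over control for a feature on an array, so that a value below 0 means less transcript with MYC siRNA. Neither the log base nor the direction is stated in the sources used here. The base was taken from the range of the values and the direction from the dyes, with MYC itself lying below 0. If the ratios run the other way, each sign below is turned. Ratios hold no level of a transcript, so markers of the cell line could not be checked as levels, and how far a feature's signal stood above background is unknown. MYC averaged -0.89 ± 0.39 (SD, n = 4), which is 53.8% of control (limma, adjusted p = 0.0146). Its log2 ratio was -0.35 (24 h) and -0.94 (8 h) on the control siRNA arrays, and -1.03 (24 h) and -1.26 (6 h) on the no-siRNA arrays. The fall of MYC was smallest on the 24 h control siRNA array. Leaving out the 6 h array moved the MYC mean to -0.77 and its adjusted p to 0.053. In bulk RNA, fewer cells of a kind and less RNA per cell cannot be told apart.

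Cholesterol is built from acetyl-CoA through mevalonate. IDI1 converts isopentenyl diphosphate to its isomer dimethylallyl diphosphate, FDPS joins these units to farnesyl diphosphate, and SQLE adds oxygen to squalene on the way to the sterol rings. Farnesyl diphosphate also feeds the chains that anchor small GTPases to membranes, and proliferating cells need sterol for new membrane. SREBF2 encodes SREBP-2, a transcription factor held in the membrane of the endoplasmic reticulum. When sterol is short, its escort SCAP carries it to the Golgi, where proteases free the part that enters the nucleus and switches on genes of sterol synthesis and uptake. When sterol is plentiful, INSIG1 holds SCAP back. INSIG1, the enzymes and SREBF2 itself are known targets of SREBP-2.

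Promoter windows of 4 of the 5 genes were taken from RefSeq (build GRCh38.p14), each running from 250 bases before to 50 bases after a transcription start. Those of SREBF2, INSIG1 and FDPS are shown because SREBF2 and FDPS passed the test described below with opposite signs, and INSIG1 is the feedback regulator between them. Capitals mark matches, on either strand, to the sterol regulatory element core TCACNCCAC bound by SREBP, the E-box CACGTG bound by MYC with MAX and by other factors, and the CCAAT box bound by NF-Y, which reads ATTGG on the other strand. The 3 windows are on the plus strand, at chr22:41832855-41833154 for SREBF2, chr7:155297628-155297927 for INSIG1 and chr1:155308616-155308915 for FDPS.
SREBF2: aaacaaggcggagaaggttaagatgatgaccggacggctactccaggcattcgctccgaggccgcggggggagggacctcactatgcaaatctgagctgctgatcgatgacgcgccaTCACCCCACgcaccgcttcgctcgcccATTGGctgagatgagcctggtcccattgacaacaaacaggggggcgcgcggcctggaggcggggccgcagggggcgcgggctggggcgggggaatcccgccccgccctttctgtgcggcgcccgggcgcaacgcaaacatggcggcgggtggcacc
INSIG1: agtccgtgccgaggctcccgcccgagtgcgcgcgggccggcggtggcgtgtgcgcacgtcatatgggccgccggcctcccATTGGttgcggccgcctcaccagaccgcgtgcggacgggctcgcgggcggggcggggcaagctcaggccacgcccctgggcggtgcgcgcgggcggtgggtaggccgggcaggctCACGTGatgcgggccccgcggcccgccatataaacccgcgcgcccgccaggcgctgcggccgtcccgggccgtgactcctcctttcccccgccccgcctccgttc
FDPS: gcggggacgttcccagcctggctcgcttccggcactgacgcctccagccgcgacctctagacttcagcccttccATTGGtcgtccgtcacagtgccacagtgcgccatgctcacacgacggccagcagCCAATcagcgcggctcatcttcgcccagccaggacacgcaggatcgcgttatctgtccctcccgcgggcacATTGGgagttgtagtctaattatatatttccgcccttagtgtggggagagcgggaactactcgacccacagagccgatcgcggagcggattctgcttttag
The SREBF2 window held 1 match to the sterol element, TCACCCCAC, which begins 133 bases before the start, and 1 CCAAT box at 106 bases before it. The INSIG1 window held 1 E-box, 55 bases before the start, and 1 CCAAT box. In the FDPS window there were 3 CCAAT boxes, at 176, 122 and 51 bases before the start, with 0 matches to the other motifs. RefSeq lists 3 windows for IDI1, which held 3, 2 and 0 CCAAT boxes and 0 matches to the sterol element and the E-box. No match overlapped one to another motif in the 3 windows shown. Among the 35116 windows of this kind in RefSeq, which partly overlap each other, 1.13% held a match to the sterol element, 7.26% an E-box and 34.6% a CCAAT box. Only sequences that fit these patterns at each base were counted, so a count of 0 does not exclude variants of a motif. A match describes the letters of the window, and binding was not measured here.

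With MYC siRNA, FDPS fell and SREBF2 rose, while IDI1, SQLE and INSIG1 did not pass the test. FDPS was at 72.6% of control and SREBF2 at 127%, in means over the 4 arrays. With the direction of the ratio turned, FDPS would be at 138% and SREBF2 at 78.8%, and MYC itself at 186% under its own siRNA. The other 3 genes had means below 0, at 91.4% (IDI1), 89.5% (SQLE) and 87.6% (INSIG1). The test was limma on the mean log2 ratio of each gene against 0, fitted over 6798 rows and adjusted by Benjamini-Hochberg. A row is a gene, with its features averaged on each array, or a feature without a symbol. The exact sign-flip test of single genes gave a two-sided p of 0.125 for FDPS and SREBF2. That is the smallest p that 4 arrays allow, and it was 0.25 for IDI1, SQLE and INSIG1. The count was 2 of 5 genes past an adjusted p of 0.05, or 40.0%, beside a background of 15.8% of all rows. The genes, and the pathway lists used below, were chosen with earlier results of these data known. Such shares are therefore not an independent comparison with the background. Rows that fell made up 10.2% of all and rows that rose 5.56%, and 1 of the 5 genes was in each class. The labels do not say whether the 4 arrays come from separate cultures, so p-values cover only the spread over these arrays, which may be technical in part.

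**Figure D1:**
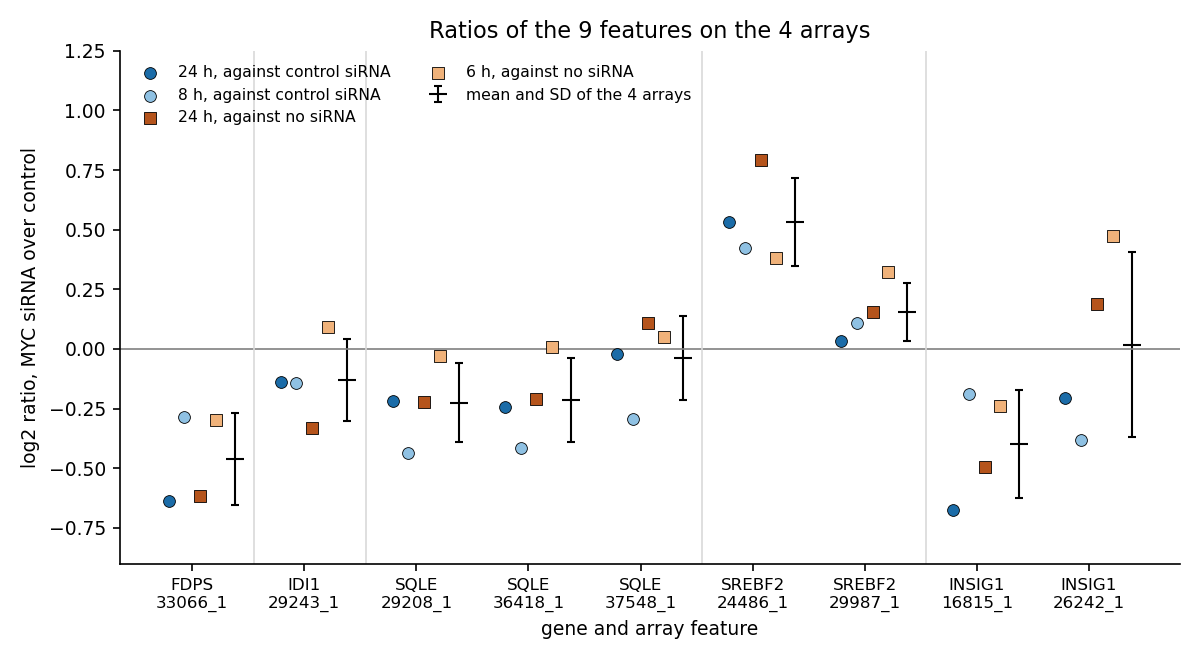
Log2 ratio of MYC siRNA over control (y axis) of each of the 9 features (x axis, by gene) on the 4 arrays, with the mean and SD of the 4 arrays in black at the right of each group of points. Both features of SREBF2 lie above 0 on the 4 arrays, FDPS lies below 0 on the 4 arrays and lower at 24 h, and the features of INSIG1 have opposite signs on the no-siRNA arrays.

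Among the enzymes, FDPS, farnesyl diphosphate synthase, had log2 ratios of -0.64 (24 h) and -0.29 (8 h) on the control siRNA arrays, and -0.62 (24 h) and -0.30 (6 h) on the no-siRNA arrays. These correspond to 64.2%, 82.0%, 65.2% and 81.2% of control. All 4 values were below 0, as in 23.3% of all rows, and the values at 24 h were the lower ones with both kinds of control. The mean was -0.46 ± 0.19 (SD, n = 4; SE 0.097), with a 95% confidence interval from -0.68 to -0.24 and an adjusted p of 0.0218 in limma. The gene rested on 1 feature, and 4.65% of all rows had a lower mean. Without the 24 h control siRNA array the mean was -0.40 and did not pass (adjusted p = 0.0835), nor did it without the 24 h array (-0.41, adjusted p = 0.064) or the 6 h array (-0.51, adjusted p = 0.0552) against no siRNA.

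IDI1, isopentenyl diphosphate isomerase, works just upstream of FDPS and had smaller ratios. They were -0.14 (24 h) and -0.14 (8 h) on the control siRNA arrays, and -0.33 (24 h) and 0.09 (6 h) on the no-siRNA arrays. On 3 of the 4 arrays the value was below 0, and the no-siRNA arrays had opposite signs. The mean of -0.13 ± 0.17 (SD, n = 4) did not pass (limma, adjusted p = 0.342), and its 95% confidence interval ran from -0.34 to 0.08.

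SQLE, squalene epoxidase, was measured by 3 features. Averaged over them, its log2 ratio was -0.16 (24 h) and -0.38 (8 h) on the control siRNA arrays, and -0.11 (24 h) and 0.01 (6 h) on the no-siRNA arrays. The 8 h array was the lowest and the 6 h array the 1 above 0. The mean was -0.16 ± 0.16 (SD, n = 4; 95% confidence interval from -0.37 to 0.05; limma, adjusted p = 0.24). Features 29208_1 and 36418_1 followed each other closely on every array, with a mean difference of -0.01 ± 0.03 (SD, n = 4). The other feature, 37548_1, lay above both on the 4 arrays, by 0.19 and 0.18 in the mean. For each of these differences the exact sign-flip test over 4 arrays gave a two-sided p of 0.125, the smallest that 4 arrays allow. The feature means spanned 0.19, and 82.2% of the 437 genes with 3 complete features spanned at least as much.

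Over the 5 features of the 3 enzymes, 16 of 20 values were below 0. Of the 4 others, 3 were measured at 6 h and 1 at 24 h, each time with no siRNA as the control. The 5 features were read on the same 4 arrays and 3 of them are of SQLE, so these values are not independent. No share over all features stands beside this count, and IDI1 and SQLE did not pass.

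Of the regulators, SREBF2 rose. Its log2 ratio, as the mean of 2 features, was 0.28 (24 h) and 0.27 (8 h) on the control siRNA arrays, and 0.47 (24 h) and 0.35 (6 h) on the no-siRNA arrays. All 4 values were above 0, as in 19.4% of all rows, with the smallest spread of the 5 genes. The mean was 0.34 ± 0.09 (SD, n = 4; SE 0.084), with a 95% confidence interval from 0.15 to 0.53 and an adjusted p of 0.0302 in limma. In 94.0% of all rows the mean was lower. With any 1 array left out the mean lay between 0.30 and 0.37 and did not pass. The adjusted p was then 0.0873 without the 24 h and 0.0653 without the 8 h control siRNA array, and 0.0865 without the 24 h and 0.0806 without the 6 h no-siRNA array. In these fits over 3 arrays, the rows past the test numbered 4, 441, 234 and 0 in the same order (limma, with 1895, 2004, 1796 and 2179 before adjustment).

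The features of SREBF2 had the same sign but not the same size. Feature 24486_1 had 0.53 (24 h) and 0.42 (8 h) on the control siRNA arrays, and 0.79 (24 h) and 0.38 (6 h) on the no-siRNA arrays, a mean of 0.53 ± 0.19 (SD, n = 4). Feature 29987_1 had 0.03 (24 h) and 0.11 (8 h) on the control siRNA arrays, and 0.15 (24 h) and 0.32 (6 h) on the no-siRNA arrays, a mean of 0.15 ± 0.12. The first was the higher one on each array, by 0.38 ± 0.25 in the mean (exact sign-flip test, two-sided p = 0.125). Tested as single features over 10161 features with 4 values, 24486_1 passed (limma, adjusted p = 0.0129) and 29987_1 did not (adjusted p = 0.264). A gap as large was found in 23.1% of the 1023 genes with 2 complete features. Both features carry the same RefSeq accession, and their positions in the transcript are unknown here.

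INSIG1, which retains the SCAP complex, had a log2 ratio of -0.44 (24 h) and -0.29 (8 h) on the control siRNA arrays, and -0.15 (24 h) and 0.12 (6 h) on the no-siRNA arrays. Both control siRNA arrays were lower than both no-siRNA arrays. The mean was -0.19 ± 0.24 (SD, n = 4; 95% confidence interval from -0.43 to 0.04; limma, adjusted p = 0.216). With an array left out the mean lay between -0.29 (6 h array omitted) and -0.11 (24 h control siRNA array omitted) and did not pass. Its 2 features did not move alike.

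Feature 16815_1 of INSIG1 had -0.67 (24 h) and -0.19 (8 h) on the control siRNA arrays, and -0.50 (24 h) and -0.24 (6 h) on the no-siRNA arrays. All 4 values were below 0 and the values at 24 h were the lower ones, as with FDPS. Its mean of -0.40 ± 0.23 (SD, n = 4), or 75.8% of control, passed over single features (limma, adjusted p = 0.0311). Feature 26242_1 had -0.20 (24 h) and -0.38 (8 h) on the control siRNA arrays, but 0.19 (24 h) and 0.47 (6 h) on the no-siRNA arrays, with a mean of 0.02 ± 0.39 (adjusted p = 0.938). The first feature was lower than the second on 3 of 4 arrays, with a mean difference of -0.42 ± 0.42 (exact sign-flip test, two-sided p = 0.25). A gap as large was found in 17.8% of the 1023 genes with 2 complete features. Over the 9 features, 3 passed, namely 33066_1 of FDPS, 24486_1 of SREBF2 and 16815_1 of INSIG1. That is 33.3%, beside a background of 19.4% of all 10161 features, of which 12.3% passed below 0 and 7.09% above it.

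**Figure D2:**
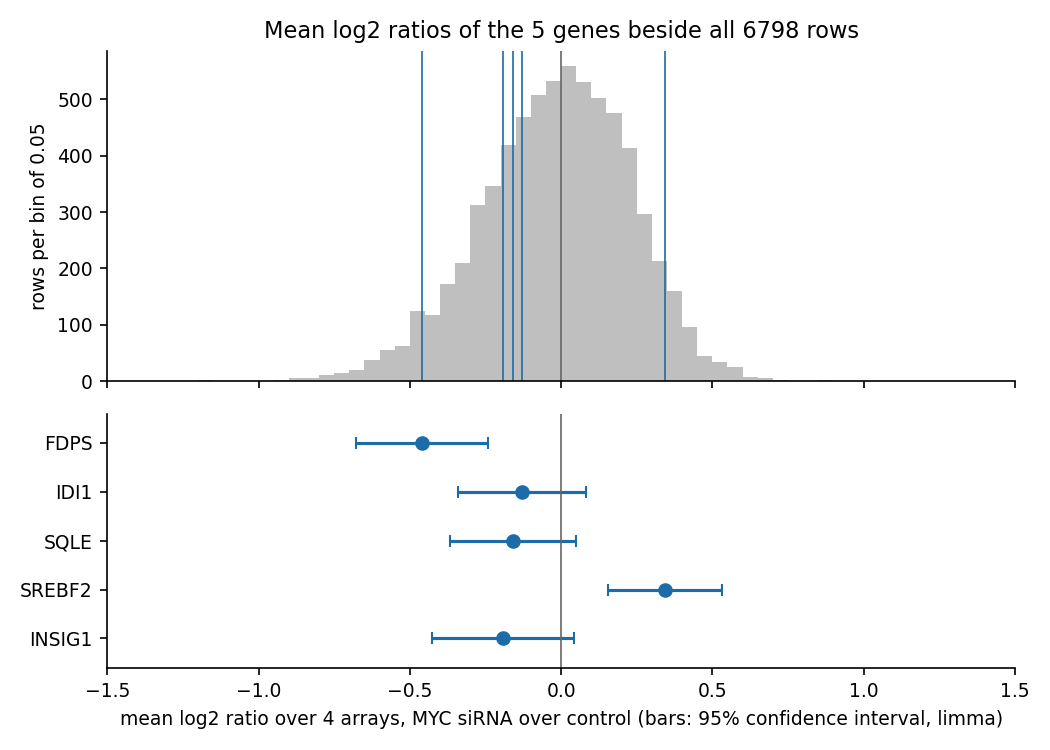
The upper panel is a histogram of the mean log2 ratio over 4 arrays of all 6798 rows, with the means of the 5 genes as blue lines, and the lower panel gives each gene's mean (point) with its 95% confidence interval (bar). The intervals of FDPS (-0.68 to -0.24) and SREBF2 (0.15 to 0.53) lie on either side of 0, and those of IDI1, SQLE and INSIG1 cross it.

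From the lowest mean log2 ratio to the highest, the genes stood as FDPS, INSIG1, SQLE, IDI1 and SREBF2. SREBF2 was higher than each of the other 4 genes on each of the 4 arrays. The mean difference ran from 0.47 ± 0.23 against IDI1 to 0.80 ± 0.25 against FDPS (SD, n = 4). INSIG1, SQLE and IDI1 differed from each other by 0.06 or less in the mean, with SDs of 0.18 to 0.21, so their order is within the spread between arrays. FDPS was lower than IDI1 on 4 of 4 arrays, with a mean difference IDI1 minus FDPS of 0.33 ± 0.15, and lower than SQLE on 3 of 4, with SQLE minus FDPS at 0.30 ± 0.28. INSIG1 minus FDPS was 0.27 ± 0.21 and above 0 on 4 of 4 arrays, though only by 0.001 on the 8 h array. Over the 10 pairs, the exact sign-flip test gave an adjusted p of 0.208 at the lowest (unadjusted p = 0.125), and 4 arrays cannot reach the threshold.

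By time, 0 of the 5 genes passed, beside a background of 0.118% of rows (limma with time and kind of control as terms). Before adjustment, 687 of 6798 rows and 0 of the 5 genes had a p under 0.05. Rows higher at 24 h made up 0.0294%. FDPS had a mean log2 ratio of -0.63 at 24 h and -0.29 at the early times. Its difference was -0.34 (SE 0.18, 95% confidence interval from -0.72 to 0.05, limma adjusted p = 0.592). With an array left out and time as the only term, the FDPS difference lay between -0.35 and -0.32. Scaling the arrays to one spread moved it to -0.22. INSIG1 and IDI1 each differed by -0.21 between 24 h and the early arrays, and by -0.41 to -0.01 (INSIG1) and -0.33 to -0.09 (IDI1) with an array left out. SQLE differed by 0.05 and SREBF2 by 0.07, though SQLE had -0.012 with the median of its features and SREBF2 -0.035 with scaled arrays. FDPS was the 1 gene of 5 with both 24 h arrays below both early arrays, a pattern found in 19.1% of all rows. For 0 of the 5 genes both 24 h arrays lay above both early arrays, as they did in 17.4% of all rows.

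By kind of control, 0 of the 5 genes passed either, beside a background of 0.0883% of rows (limma). Before adjustment, 685 rows and 0 of the 5 genes had a p under 0.05. For INSIG1 the mean log2 ratio was -0.36 against control siRNA and -0.02 against no siRNA (difference -0.34, SE 0.18, 95% confidence interval from -0.73 to 0.04, limma adjusted p = 0.567). With an array left out and the kind of control as the only term, this difference lay between -0.48 and -0.21. For SQLE the means were -0.27 against control siRNA and -0.05 against no siRNA, and for SREBF2 they were 0.27 against control siRNA and 0.41 against no siRNA. INSIG1, SQLE and SREBF2 had both control siRNA arrays below both no-siRNA arrays, which holds for 15.6% of all rows. The opposite order, found in 19% of rows, was seen for 0 of the 5. FDPS averaged -0.46 with each kind of control (difference -0.004, 95% confidence interval from -0.39 to 0.38). The 2 kinds of control also fall into separate ranges of array identifiers, so a batch and the kind of control cannot be told apart. Their early arrays differ in time as well, at 8 h against control siRNA and 6 h against no siRNA. The comparison therefore also holds that difference in time.

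**Figure D3:**
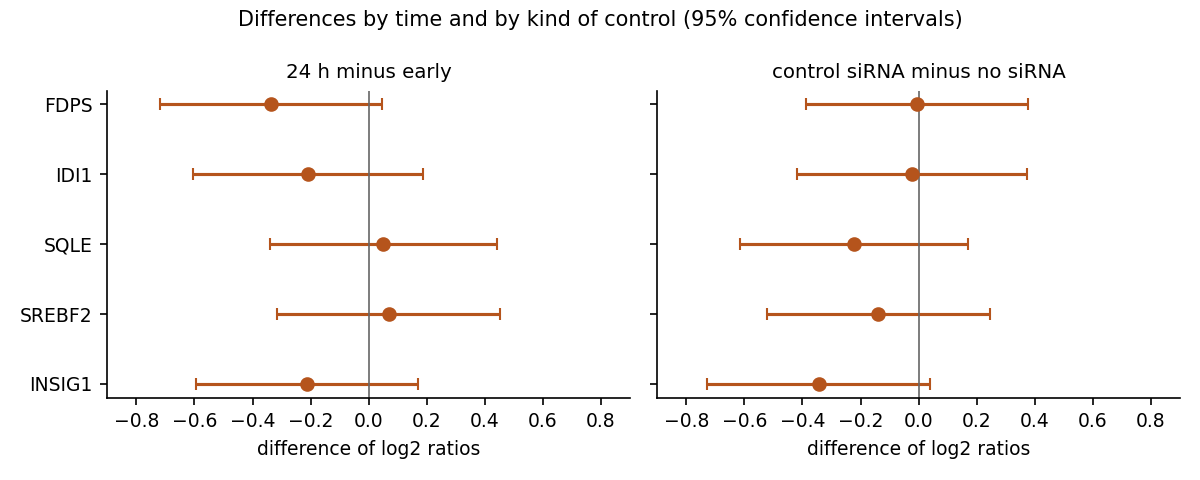
Difference of the log2 ratio between 24 h and the early arrays (left) and between control siRNA and no-siRNA arrays (right), for the 5 genes, with 95% confidence intervals from limma. Each interval crosses 0, with FDPS at -0.34 by time and INSIG1 at -0.34 by kind of control.

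The wider pathway was read from 6 lists of 70 genes, of which 26 had a named feature and 20 a value on all 4 arrays. Of these 20, 3 fell (FDPS, SCD and GGPS1), 1 rose (SREBF2) and 16 did not pass. That is 4 of 20 past the test, beside 15.8% of all rows, and the median log2 ratio was -0.07, beside -0.003 over all rows. Without the 5 genes, 2 of 15 fell and 0 rose, with a median of -0.007. Leaving out the 8 h array kept 1 of the 20 genes past the test, beside 441 of 6798 rows. Omitting the 24 h control siRNA array, the 6 h array or the 24 h no-siRNA array kept 0 of them. The rows past the test were then 4, 0 and 234 in that order, against 1073 with all 4 arrays. The loss of calls was therefore seen over all rows, and not in the list genes alone.

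Of the 8 enzymes up to farnesyl diphosphate, IDI1 and FDPS had values. Of 13 enzymes from squalene onward, 5 had values on all arrays, 0 passed (limma, 0 also before adjustment), and the median was -0.08. Beside SQLE, CYP51A1, the lanosterol demethylase, averaged -0.11 ± 0.09 and was below 0 on 4 of 4 arrays (SD, n = 4; limma, adjusted p = 0.37). Of its 3 features, 1 averaged -0.33, while the others, at -0.03 and 0.03, lay near 0. SC5D, a desaturase of late sterol synthesis, averaged -0.08 ± 0.09, and LSS, which closes the sterol rings, 0.02 ± 0.14. TM7SF2, a sterol reductase, had -0.27 (24 h) and -0.51 (8 h) on the control siRNA arrays and -0.02 on the 6 h array, with no value on the other array.

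LBR, the lamin B receptor, which also has sterol reductase activity, averaged -0.01 ± 0.65 (SD, n = 4), and 0.046 with arrays scaled to one spread. Its log2 ratio was -0.76 (24 h) and 0.15 (8 h) on the control siRNA arrays, and -0.22 (24 h) and 0.79 (6 h) on the no-siRNA arrays. It was below 0 at 24 h and above 0 early with both kinds of control. LBR was 1 of the 8 rows past the test for time (difference -0.96, SE 0.18, limma adjusted p = 0.0494). In limma it also passed with centred arrays (adjusted p = 0.00265), the median of features (adjusted p = 0.00058) and complete features only (adjusted p = 0.0257). With centred arrays and the median of features, the errors rest almost wholly on the spread pooled over rows. The call was lost with arrays scaled to one spread (adjusted p = 0.614) and with time as the only term (adjusted p = 0.747). With time as the only term and an array left out as well, the adjusted p was 0.363 to 0.988.

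In the list of sterol sensing, INSIG2, a second retention protein, averaged -0.05 ± 0.06 (SD, n = 4), with features at -0.25 and 0.15 in the mean. MBTPS1, the protease that makes the first cut in SREBPs, averaged 0.002 ± 0.09. Among genes of uptake, transport and esterification, 0 of 3 passed (limma, 1 before adjustment, MYLIP). MYLIP, a ubiquitin ligase that limits cholesterol uptake, averaged 0.30 ± 0.16 and was above 0 on 4 of 4 arrays (limma, adjusted p = 0.0577). STARD4, a sterol carrier, averaged -0.12 ± 0.08 over features that averaged from -0.32 to 0.03, and LIPA, the lysosomal lipase, 0.12 ± 0.24. SCARB1, a lipoprotein receptor, had -0.55 on the 8 h array, and -0.69 (24 h) and -0.30 (6 h) on the no-siRNA arrays, with no value on the other array. It passed where rows with 3 values were allowed (limma, adjusted p = 0.0333).

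SCD, the stearoyl-CoA desaturase and a target of SREBPs, fell by 0.42 (SD 0.18, n = 4; limma, adjusted p = 0.0253) over 6 features. Its log2 ratio was -0.63 (24 h) and -0.36 (8 h) on the control siRNA arrays, and -0.48 (24 h) and -0.20 (6 h) on the no-siRNA arrays. Both 24 h arrays lay below both early arrays, as with FDPS, and the means of its features ran from -0.75 to -0.19, with 2 features lacking a value on some arrays. GGPS1, which extends farnesyl diphosphate to the chain used on many GTPases, fell by 0.42 (SD 0.29, n = 4; limma, adjusted p = 0.04). It had -0.44 (24 h) and -0.63 (8 h) on the control siRNA arrays, but -0.62 (24 h) and -0.004 (6 h) on the no-siRNA arrays. With any 1 array left out, SCD lay between -0.49 and -0.35 and GGPS1 between -0.56 and -0.35, and neither passed (adjusted p of 0.0548 to 0.0954 for SCD and 0.053 to 0.124 for GGPS1).

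DHDDS, of dolichol synthesis, averaged -0.26 ± 0.17 and was below 0 on 4 of 4 arrays (SD, n = 4; limma, adjusted p = 0.0803). PDSS1 (-0.01 ± 0.29) and COQ2 (0.05 ± 0.17), of ubiquinone synthesis, and ELOVL5 (0.04 ± 0.23), a fatty acid elongase, did not pass. Their features differed in sign for PDSS1 (-0.27 and 0.26) and ELOVL5 (-0.33 to 0.54).

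**Figure D4:**
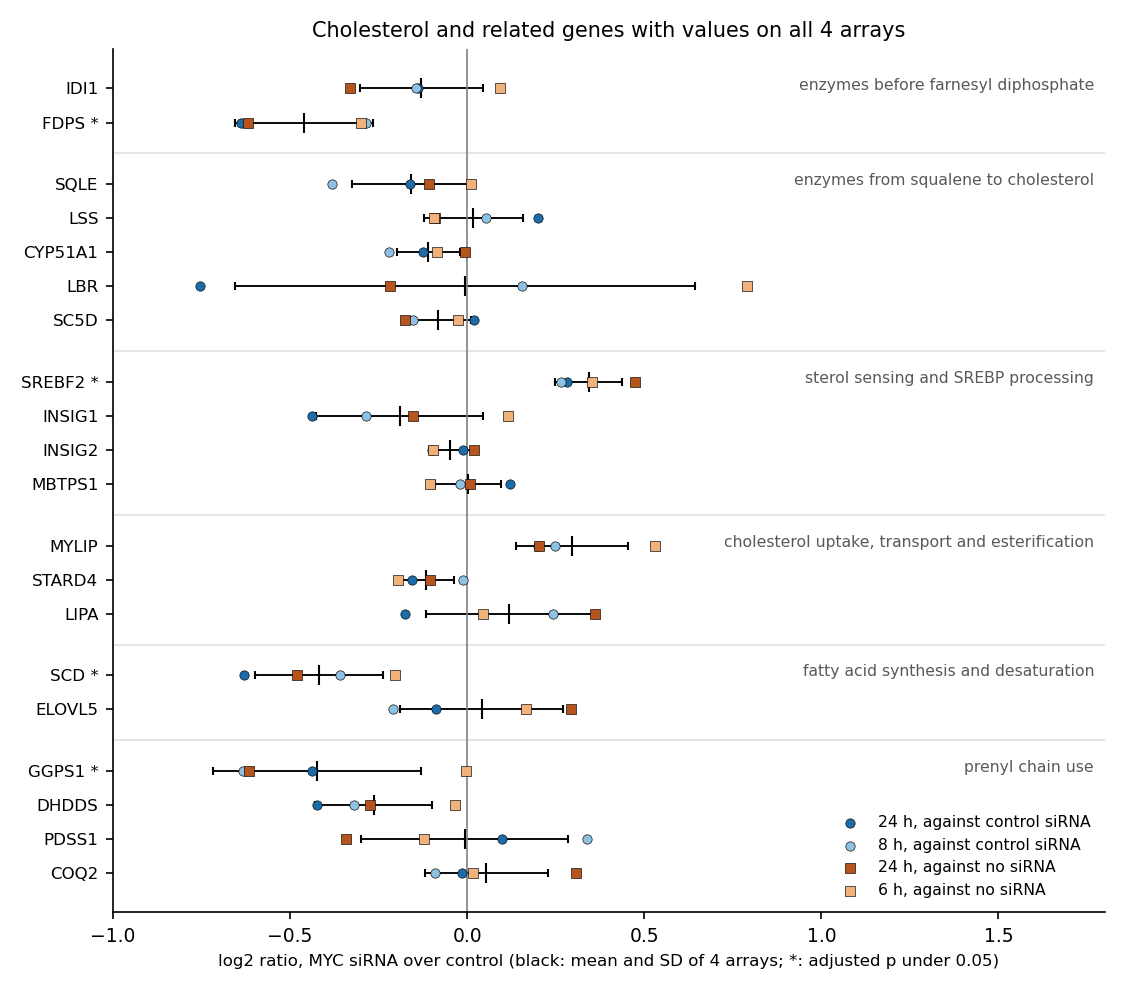
Log2 ratio of MYC siRNA over control (x axis) of the 20 list genes with values on all 4 arrays (y axis, by list), with 1 point per array and the mean and SD in black. An asterisk marks FDPS, SREBF2, SCD and GGPS1, the 4 genes past an adjusted p of 0.05 in limma, and LBR shows the widest spread.

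The profile of each gene over the 4 arrays was set against those of the other 3953 named genes by the root mean square difference of the log2 ratio. This is a description over 4 arrays that share cell line and dye orientation. Counted from FDPS, SCD had rank 8 (0.091), GGPS1 rank 377 (0.249) and MYC rank 2806 (0.632). The genes nearest to FDPS were ARHGAP19 (0.048), PANK3 (0.072) and TBCK (0.085). For IDI1 they were MMP1 (0.019), PKM (0.023) and CLN8 (0.036), and for SQLE they were KLRA1P (0.020), MAD2L1BP (0.042) and FBXO43 (0.044). For SREBF2 they were SESN3 (0.028), NUCKS1 (0.035) and HIF1AN (0.035), and for INSIG1 they were MMD (0.043), PSMD3 (0.051) and TMED8 (0.058). With features averaged, none of the 5 genes was among the 3 nearest of another. The closest pair among them was INSIG1 and SQLE (0.16), with SQLE at rank 114 from INSIG1 and INSIG1 at rank 338 from SQLE. SREBF2 stood at rank 3684 of 3953 from FDPS (0.83).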

How the data were processed

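RNA of OCI-Ly10 cells was hybridised in 2 colours on 4 arrays. The deposited values are log2 ratios, 1 per feature and array. How background was corrected and values normalized is not given in the sources used here. Array medians lay between -0.034 and 0.014. The SD of the log2 ratios was 0.45 on the 24 h no-siRNA array and 0.29 to 0.33 on the others. Total RNA was labelled from oligo dT primers, per the labels' protocols. Symbols came from the platform annotation, updated by Entrez ID (RefSeq, GRCh38.p14, 10124 of 10165 features matched).

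Features of 1 symbol were averaged on each array, which gave 6798 rows with 4 values. The mean log2 ratio was tested against 0 with limma 3.58.1 in R 4.3.3 (lmFit and eBayes). Time and kind of control were tested as 2 terms of 1 model. With 1 residual against 17.5 prior degrees of freedom, those errors rest mostly on the spread pooled over rows. The Benjamini-Hochberg adjustment ran over all rows and the threshold was 0.05. Precision is limited by the number of arrays. The exact sign-flip test over 16 sign patterns allows no p below 0.125. The code was tested on simulated data.

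The genes, the pathway lists and the tests were chosen with earlier results of these data known. Named genes were the 5 genes with each of their features, MYC, the list genes past the threshold, each sterol enzyme with values and the 3 genes nearest in profile. Other list genes are named after their values were seen. Alternatives covered centring, scaling, features, empty cells, terms, left-out arrays and single features.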

Additional observations from a re-analysis of the deposited data

Results flagged for a closer look

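Values that stood apart, or that parted by time or kind of control, were looked for in 28 sets of 4 values, those of the list genes, MYC and the 7 features of SQLE, SREBF2 and INSIG1.

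Feature 26242_1 of INSIG1 was below 0 on both arrays against control siRNA and above 0 on both against no siRNA, a difference of -0.625 (limma, adjusted p = 0.182 over single features). Feature 37548_1 of SQLE did the same with a smaller difference, -0.237 (adjusted p = 0.803). Neither difference passed the test.

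Opposite signs by kind of control were also seen for LSS (control siRNA minus no siRNA, 0.218), ELOVL5 (-0.379), PDSS1 (0.451) and COQ2 (-0.213), and by time for MBTPS1 (24 h minus early, 0.128). Their adjusted p in limma lay between 0.371 (PDSS1) and 0.883 (MBTPS1). LBR passed the test for time, with a difference of -0.959 (limma, adjusted p = 0.0494). It also passed with centred arrays, the median of features and complete features only. It did not pass with scaled arrays (adjusted p = 0.614) or with time as the only term (adjusted p = 0.747).

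For MYLIP the 6 h array against no siRNA, at 0.531, stood apart from the other 3, which lay between 0.199 and 0.249. Chance gives such a value in about 5% of sets, and it was found in 1 of 28.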

How the results depend on the processing

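FDPS and SREBF2 kept their signs in each alternative run for the mean log2 ratio. Both passed with centred or scaled arrays, the median of features, complete features only, rows with 3 values, robust eBayes and time and control as terms (FDPS -0.46 each, SREBF2 0.34 or 0.35). Arrays left out gave -0.52 to -0.40 for FDPS and 0.30 to 0.37 for SREBF2. In these fits FDPS passed only without the 8 h array (limma, adjusted p = 0.0417), and SREBF2 did not pass in any. They have 2 residual degrees of freedom, against 3 with all arrays. Feature 29987_1 alone gave 0.15 for SREBF2, not passing. For INSIG1, feature 16815_1 gave -0.40 and passed, and feature 26242_1 gave 0.018. IDI1 (-0.20 to -0.06) and SQLE (-0.23 to -0.04) did not pass in any. LBR averaged 0.046 with scaled arrays, and -0.27 to 0.24 with arrays left out.

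All rows past the test with MYC siRNA numbered 1980 with time and control as terms, and 0 to 441 with an array left out, against 1073. List genes past the test numbered 0 to 1 with an array left out, against 4. By time the rows were 61 with centred arrays, 0 with scaled arrays, 98 with the median of features, 26 with complete features and 0 with time as the only term, against 8 (limma, 534 before adjustment with scaled arrays and 437 with time alone). By kind of control they were 87, 0, 162, 37 and 0 in the same settings, against 6 (614 and 454 before adjustment where 0 passed). Arrays left out, with the term of interest alone and chosen after the data were examined, gave 0 to 3 by time and 1 to 26 by control.

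By time, FDPS differed by -0.22 with scaled arrays, against -0.34 without scaling. SREBF2 differed by time by -0.035 with scaled arrays, by -0.12 for feature 29987_1 and by -0.026 to 0.16 with an array left out. SQLE differed by -0.012 with the median of features, by -0.024 for feature 36418_1 and by -0.15 to 0.25 with an array left out. By kind of control, FDPS differed by -0.18 to 0.17 and IDI1 by -0.23 to 0.19 with an array left out. None of these differences passed in any setting. The cause of these changes was not tested. No paired analysis was possible because the replicate numbers only name arrays. The test of time did hold the kind of control as a term.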
